A study of Mus musculus with 8 samples.

Results

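The genes of glucose breakdown were examined here in 2 kinds of mouse plasmacytoid dendritic cell (pDC), those sorted as positive and those sorted as negative for the surface protein Sca-1. A set of 36 genes was taken, covering glucose uptake, glycolysis, the handling of lactate and pyruvate, the pentose phosphate pathway and the regulator Hif1a, out of 36095 named features on the array. Each gene was found by its name on the non-control probes and read from the probe of that name with the highest mean signal over all arrays. Of the 36, 34 could be tested, beside 19818 genes in all, and each of the 34 was well above background on all 8 arrays.

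There were 4 samples of Sca-1+ pDC, compared with 4 samples of Sca-1- pDC. All came from female BALB/c mice, with no allele or drug named, and all were grown in culture from bone marrow precursors with Flt3 ligand, the growth factor used to make dendritic cells in a dish. The cells were then separated by magnetic beads and flow cytometry and lysed at once, and 100 ng of RNA per sample was labelled for a single-colour Agilent array. The labels do not say whether samples came from separate mice or cultures, or how old the mice were, so every p-value below covers just the variation among these particular samples and may reflect technical variation alone.

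Glycolysis splits glucose to pyruvate in the cytosol and yields ATP without oxygen. Cells can send the pyruvate into mitochondria through pyruvate dehydrogenase, or reduce it to lactate and export it. The pentose phosphate pathway branches off at glucose 6-phosphate and supplies NADPH and ribose for nucleotides, so both routes are commonly active in dividing cells. In dendritic cells glycolysis is known to increase on activation through Toll-like receptors. The cells measured here had been sorted and not stimulated, as far as the labels say.

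The groups matched their labels, and pDC markers were present. Ly6a, which encodes Sca-1, was 4.65 ± 0.24 log2 units higher in Sca-1+ cells (limma, SE, adjusted p = 0.00062), with array levels of 7.17 to 7.82 against 2.21 to 3.14. All 15 pDC markers listed, Siglech and Tcf4 among them, were well above background on all 8 arrays. Of 11 markers of T and NK cells, 7 could not be tested, Cd3d among them, but Cd3e, Nkg7 and Lck were well above background on all 8 arrays and Cd8b1 on 3 of 4 Sca-1+ and 4 of 4 Sca-1- arrays. Both samples with the same replicate number lay on 1 slide. Slide 4 stood apart from slides 1 to 3, with another scan day and another protocol name in the file headers. The deviations of its samples from their group means correlated at -0.39 to -0.72 with those of replicates 1 to 3 in the other group. A level is the log2 signal minus the 75th percentile of its array, and levels of different probes are not comparable.

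No gene of the set passed the test in either direction. Of the 34 tested, 0 were higher and 0 lower in Sca-1+ cells at an adjusted p under 0.05 (limma), where 1.71% of all tested genes were called, 0.126% higher and 1.58% lower. The lowest adjusted p was 0.084, for Hk2. Without adjustment, 7 of the 34 had a p under 0.05 (limma), against 8.96% of all genes. These were Pfkfb4, Hk2, Gapdh, Pgk1, Ldhb, Pdk1 and Tkt. With the slide as a block in the fit, 1 was called higher (Ldhb) and 1 lower (Hk2), where 6.22% of all genes were called, 2.1% higher and 4.12% lower.

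The differences were small in both directions. They ran from -0.73 for Hk2 to 0.78 for Ldhb on the log2 scale, with 15 above 0 and 19 below, and a median of -0.03 beside 0.03 over all tested genes. Over all 19818 tested genes, 10976 differences were above 0 and 8842 below. No member differed by more than 1 log2 unit, which is 2-fold. Over all tested genes 2.89% did, a share too small to set 34 genes apart. All 34 members were well above background on all 8 arrays, against 17676 of the 19818 tested genes. For 29 of the 34 the whole 95% interval of the difference lay within 1 log2 unit of 0, against 75.7% of all genes. The 5 for which these arrays allow a 2-fold difference were Slc2a6, Hk2, Ldhb, Pdha1 and Hif1a. Groups did not overlap for 3 members, Hk2, Tpi1 and Gapdh, all lower in Sca-1+ cells, where 6.94% of all genes had no overlap, 1.91% higher and 5.03% lower. The sign was the same on all 4 slides for 19 members, 8 higher and 11 lower, against 36.2% of all genes, 18.4% higher and 17.8% lower. RNA from a smaller share of cells and less RNA in each cell cannot be told apart in such samples.

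**Figure D1:**
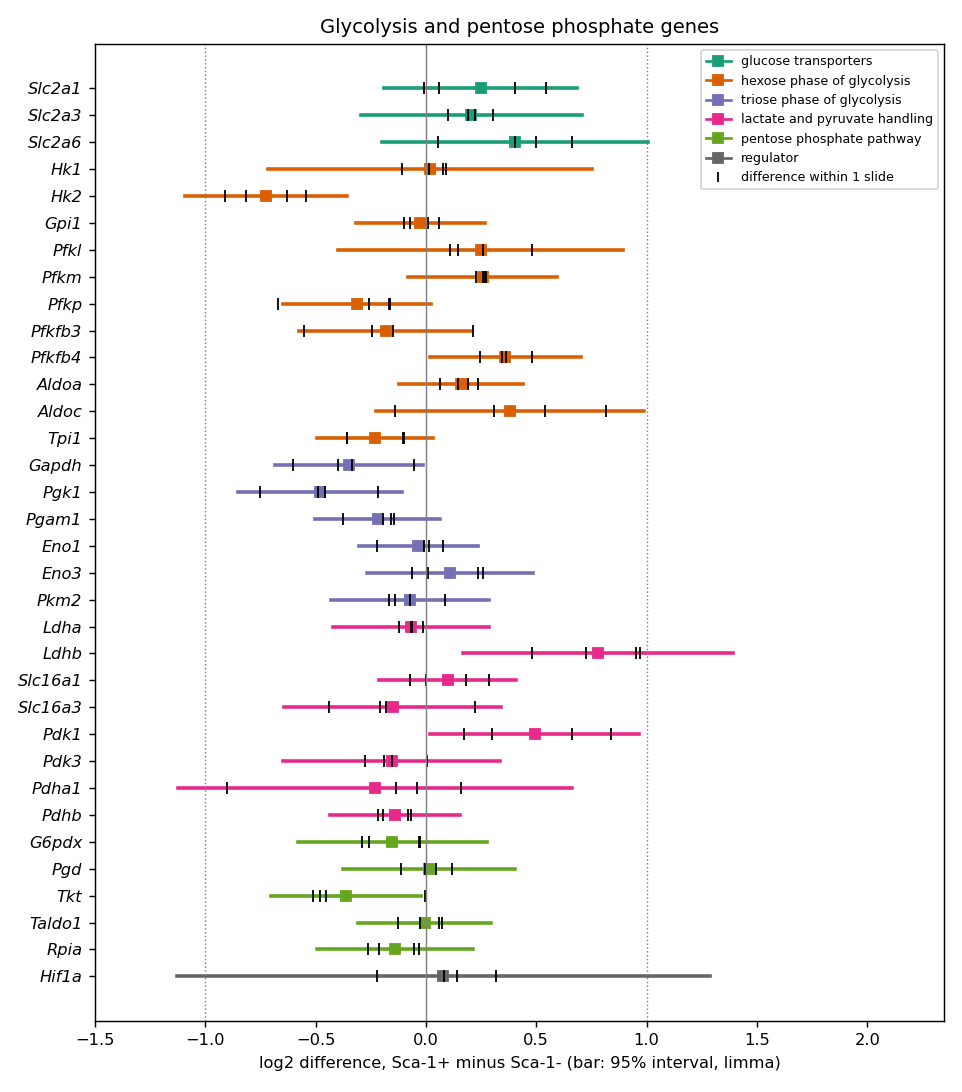
Difference in level of each of the 34 tested genes, Sca-1+ minus Sca-1- on the log2 scale, grouped by role. Squares are the limma estimates with 95% intervals (4 samples per group), black ticks the difference on each of the 4 slides, and dotted lines mark 2-fold in either direction. Hk2, at -0.73, and Ldhb, at 0.78, lie farthest from 0, and most intervals lie between the dotted lines.

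The 3 glucose transporters were all slightly higher in Sca-1+ cells without passing the test. Slc2a1 encodes GLUT1, the transporter of most dividing cells. Its difference was 0.25 (95% interval -0.19 to 0.69), with 2 of the slides close to 0. Slc2a3, which encodes the high-affinity transporter GLUT3, differed by 0.20 (-0.30 to 0.71) and was higher on all 4 slides, by 0.10 to 0.31. Slc2a6 encodes GLUT6, found mainly in white blood cells, spleen and brain. It had levels of 4.45, 3.96, 3.75 and 4.17 in Sca-1+ cells and 4.05, 3.46, 3.09 and 4.11 in Sca-1- cells, a difference of 0.41 (-0.20 to 1.01). It too was higher within each slide, while the groups overlapped.

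Hexokinases trap glucose in the cell by adding a phosphate. Hk2 is the form that many growing cells raise, and it can sit on the outer mitochondrial membrane. Its levels were -0.68, -0.88, -1.12 and -0.95 in Sca-1+ cells and 0.14, -0.25, -0.21 and -0.40 in Sca-1- cells. Every Sca-1+ sample lay below every Sca-1- sample. The difference was -0.73 ± 0.16 (SE, 95% interval -1.09 to -0.36), or 1.65-fold lower, with an adjusted p of 0.084 in limma. Within slides it was -0.82, -0.63, -0.91 and -0.54, and with the slide as a block the adjusted p was 0.014. Without both samples of replicate 4 the difference was -0.79, with an adjusted p of 0.048 (limma). Over all alternative settings the adjusted p of Hk2 ran from 0.0080 to 0.57 (limma). The single Hk2 probe lies on the minus strand at chr6:82675056-82675115 (mm9), and its first 30 of 60 bases are shown, in file order, because this is the gene nearest to the threshold. Its place within the transcript was not analysed here.
Hk2 probe: tagtgagcgttttgtcatcatgtacagtag

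Hk1, the form that most tissues express constantly, differed by 0.02 (-0.72 to 0.75). Its levels were 8.79, 8.88, 8.68 and 7.79 in Sca-1+ cells and 8.71, 8.99, 8.58 and 7.78 in Sca-1- cells. The groups overlapped fully, and slide 4 lay 0.98 below the other slides. The Hk2 difference minus the Hk1 difference was -0.74, negative on all 4 slides, but the groups overlapped and an exact permutation test of that contrast gave p = 0.086. Hk3, a hexokinase known from myeloid cells, could be told from background on 0 of 4 Sca-1+ and 2 of 4 Sca-1- arrays and was not tested.

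The next steps turn glucose 6-phosphate into triose phosphates. Gpi1, glucose 6-phosphate isomerase, differed by -0.03 (-0.32 to 0.27). Phosphofructokinase, the committing step, has a liver, a muscle and a platelet form. Muscle-type Pfkm was higher in Sca-1+ cells by almost the same amount on each slide, at 0.27, 0.26, 0.23 and 0.27, while platelet-type Pfkp was lower on each, by -0.67, -0.17, -0.16 and -0.26. Pfkm levels were 1.69, 1.62, 1.42 and 1.86 in Sca-1+ cells and 1.42, 1.36, 1.19 and 1.60 in Sca-1- cells. These overlapped, since the slides differed by more than the groups did, and the difference of 0.26 (-0.08 to 0.59) did not pass the test (limma adjusted p = 0.77, or 0.095 with slide as a block). Pfkp levels were 1.48, 1.56, 1.47 and 1.67 in Sca-1+ cells and 2.15, 1.72, 1.63 and 1.92 in Sca-1- cells. Only 1 Sca-1- sample lay within the Sca-1+ range, and the difference was -0.31 (-0.65 to 0.02). Liver-type Pfkl differed by 0.25 (-0.40 to 0.89) and was higher on each slide.

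Pfkfb3 and Pfkfb4 make and remove fructose 2,6-bisphosphate, the strongest activator of phosphofructokinase. Pfkfb4 had levels of 3.22, 3.17, 3.13 and 3.48 in Sca-1+ cells and 2.85, 2.92, 2.65 and 3.14 in Sca-1- cells. It was higher on every slide, with only the lowest Sca-1+ sample below the highest Sca-1- sample, and the difference was 0.36 ± 0.15 (limma adjusted p = 0.52, or 0.057 with slide as a block). Pfkfb3 differed by -0.18 (-0.58 to 0.21), with its sign reversed on slide 2. The aldolases cut the 6-carbon sugar: Aldoa, the main form, differed by 0.16 (-0.12 to 0.44) and Aldoc, the form known from brain, by 0.38 (-0.23 to 0.99). Aldoa was higher on every slide and Aldoc on all but slide 4. Tpi1 interconverts the products of that cut. Its levels were 2.79, 2.87, 2.69 and 2.87 in Sca-1+ cells and 3.15, 2.97, 3.05 and 2.97 in Sca-1- cells. The groups did not overlap, by a narrow gap, and the difference of -0.23 (-0.49 to 0.03) had an adjusted p of 0.68 in limma. The 11 tested genes of this phase had 6 positive and 5 negative differences and a median of 0.02.

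In the second phase of glycolysis, where ATP is made, 5 of the 6 tested genes had negative differences, with a median of -0.15. Gapdh oxidises glyceraldehyde 3-phosphate and is widely used as a reference gene. It had levels of 7.62, 7.65, 7.46 and 7.76 in Sca-1+ cells and 8.01, 8.25, 7.80 and 7.81 in Sca-1- cells. The Sca-1+ samples were all below the Sca-1- samples, but on slide 4 the 2 samples differed by only -0.05. The difference was -0.35 ± 0.15 (SE, 95% interval -0.68 to -0.01, limma adjusted p = 0.52), or 1.27-fold.

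Gapdh had 8 probes, and all 8 differences were negative, from -0.48 to -0.02. Of these, 7 lay between -0.48 and -0.35, and the one at -0.02 had the widest interval (-0.94 to 0.89). The brightest probe is placed by the files at chr7:59003199-59003257 and another on chr8 (mm9), whereas the gene lies on chr6. Such probes could read copies of the gene as well as the gene itself, so the Gapdh level is uncertain in that respect. The chr7 probe shares an unbroken run of 30 bases with a probe placed at the gene, chr6:125111869-125111928 on the minus strand, which gave -0.36 (-0.66 to -0.05). The stretches that both probes share or nearly share are shown with one more probe, at chr6:125111878-125111937. Capitals mark AATAAA, the usual signal for adding a polyA tail, which stands near the end of many transcripts.
Gapdh probe, chr7: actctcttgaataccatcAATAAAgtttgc
Gapdh probe, chr6, first: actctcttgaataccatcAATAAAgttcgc
Gapdh probe, chr6, second: attcttttgaataccatcAATAAAtttcgc

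AATAAA was in the probe used for 11 of the 36 genes, or 30.6%, read on the probe's strand only, against 12.0% of all 36095 features. The plot of the probes named Gapdh shows that 7 of them lie close together, 5 placed at the gene and 2 on other chromosomes.

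**Figure D2:**
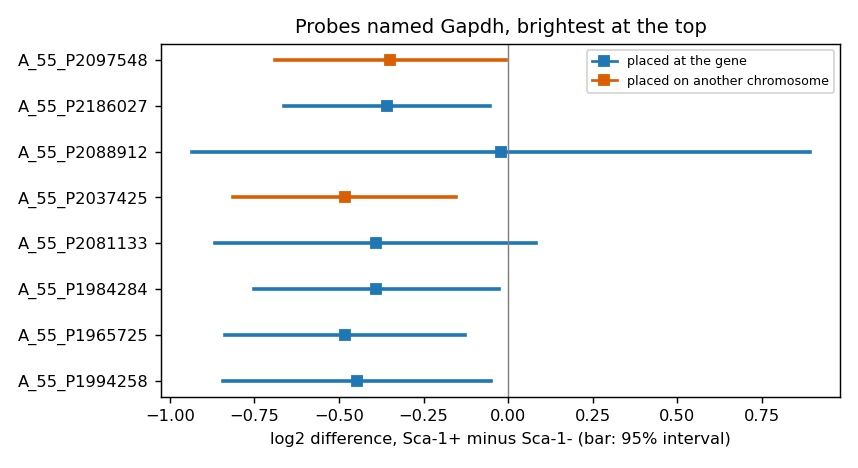
Difference between Sca-1+ and Sca-1- cells (log2, with 95% interval from a limma fit of every probe on its own) for each of the 8 probes named Gapdh, brightest at the top. Blue probes are placed at the gene and orange ones on another chromosome. Of these, 7 lie between -0.48 and -0.35, and 1 lies at -0.02 with an interval from -0.94 to 0.89.

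Pgk1 makes the first ATP of the pathway. It had levels of 4.29, 4.45, 4.26 and 4.83 in Sca-1+ cells and 5.04, 4.90, 4.75 and 5.05 in Sca-1- cells. The groups overlapped by 1 sample, the Sca-1+ sample on slide 4. The difference was -0.48 ± 0.16 (SE, 95% interval -0.85 to -0.11), with an adjusted p of 0.33 in limma and 0.060 with the slide as a block. Its probe is placed at chr3:57906830-57906894 (mm9) while the gene lies on chrX, so a copy elsewhere may contribute to the signal. Pgam1, the mutase that follows, differed by -0.22 (-0.50 to 0.06) and was lower on all 4 slides. Enolase makes phosphoenolpyruvate: Eno1, its ubiquitous form, differed by -0.03 (-0.31 to 0.24), and Eno3, known from muscle, by 0.11 (-0.27 to 0.49). Eno2, the form known from neurons, could be told from background on 0 Sca-1+ arrays and 1 Sca-1- array and was not tested. Pkm2 is the name in the files for pyruvate kinase M, now called Pkm, which makes pyruvate and the last ATP. It differed by -0.07 (-0.43 to 0.28), and the probe was not examined for which splice form it reads.

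Lactate dehydrogenase is a tetramer of A and B subunits; the A form is known to favour lactate production and the B form the oxidation of lactate to pyruvate. Ldhb had levels of 3.10, 2.80, 2.33 and 3.14 in Sca-1+ cells and 2.13, 1.85, 1.61 and 2.66 in Sca-1- cells. It was higher in Sca-1+ cells on every slide, by 0.97, 0.95, 0.72 and 0.48, but slides 3 and 4 differed enough for the groups to overlap. The difference was 0.78 ± 0.27 (SE, 95% interval 0.17 to 1.39), or 1.72-fold higher, with an adjusted p of 0.34 in limma. With the slide as a block the adjusted p was 0.019, and over all settings it ran from 0.019 to 1.00 (limma). Ldha had levels of 7.03, 7.01, 6.67 and 6.80 in Sca-1+ cells and 7.15, 7.08, 6.69 and 6.87 in Sca-1- cells. These overlapped throughout, and the difference was -0.07 (-0.42 to 0.29). The 2 other Ldha probes gave -0.05 and -0.09. The single Ldhb probe lies on the minus strand at chr6:142438770-142438829 (mm9), and bases 20 to 49 of its 60 are shown, with AATAAA in capitals, because this gene had the highest difference of the set.
Ldhb probe: actaggagctcctgatcaAATAAAgttagc

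**Figure D3:**
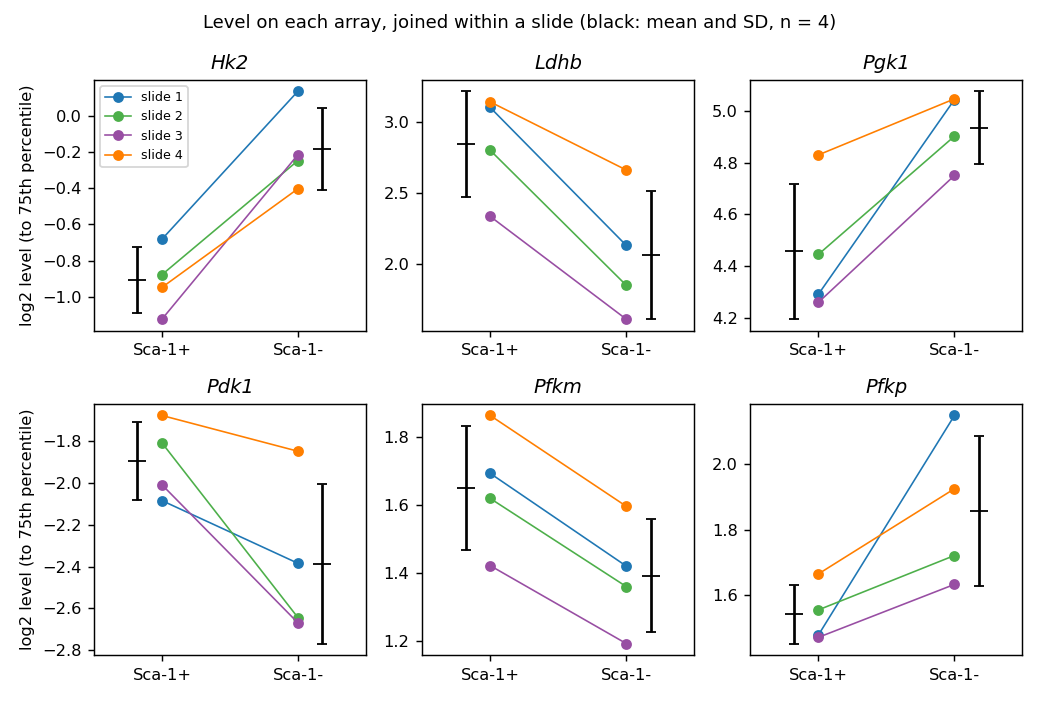
Levels of Hk2, Ldhb, Pgk1, Pdk1, Pfkm and Pfkp on each of the 8 arrays, as log2 signal minus the array's 75th percentile, with Sca-1+ on the left and samples of 1 slide joined by a line. Black bars are the mean and SD of 4 samples. Hk2, Pgk1 and Pfkp were lower in Sca-1+ cells on each slide, and Ldhb, Pdk1 and Pfkm higher.

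Lactate leaves and enters cells through monocarboxylate transporters. Slc16a1, which encodes MCT1, differed by 0.10 (-0.21 to 0.41), and Slc16a3, which encodes the lactate exporter MCT4, by -0.15 (-0.64 to 0.34). A second Slc16a3 probe that shares a run of 53 bases with the one used gave 0.15 (-0.33 to 0.63), so no sign can be given for this gene. The pyruvate dehydrogenase kinases switch off the entry of pyruvate into the mitochondrial cycle. Pdk1, also a known target of HIF-1, had levels of -2.08, -1.81, -2.01 and -1.68 in Sca-1+ cells and -2.38, -2.64, -2.67 and -1.85 in Sca-1- cells. It was higher on every slide, and only the Sca-1- sample on slide 4 reached the Sca-1+ range. The difference was 0.49 ± 0.21 (limma adjusted p = 0.52, or 0.094 with slide as a block). Pdk3 differed by -0.15 (-0.65 to 0.34). The 2 subunits of the dehydrogenase itself, Pdha1 and Pdhb, differed by -0.23 (-1.12 to 0.66) and -0.14 (-0.43 to 0.15). Pdhb was lower on all 4 slides. Pdha1 lay 1.17 higher on slide 4 than on the other slides.

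Of the 5 pentose phosphate genes, 4 had negative differences, with a median of -0.14, and none passed the test. Tkt, the transketolase that links the pathway back to glycolysis, had levels of 5.59, 5.41, 5.42 and 5.53 in Sca-1+ cells and 6.10, 5.89, 5.87 and 5.53 in Sca-1- cells. The Sca-1+ samples lay clearly below on slides 1 to 3, by -0.51, -0.48 and -0.45, and the pair on slide 4 was equal, at -0.01. Its difference was -0.36 ± 0.15 (limma adjusted p = 0.49). G6pdx, whose enzyme opens the pathway and makes NADPH, differed by -0.15 (-0.58 to 0.28). Pgd, which makes the second NADPH, differed by 0.01 (-0.38 to 0.40). Taldo1, the transaldolase, differed by -0.01 (-0.31 to 0.29). Rpia, the isomerase that yields ribose 5-phosphate, differed by -0.14 (-0.49 to 0.21) and was lower on each slide.

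Hif1a encodes the oxygen-sensing subunit of HIF-1, which drives transcription of many glycolysis genes when oxygen is low. Its levels were 0.86, 1.11, 1.22 and 2.77 in Sca-1+ cells and 1.09, 0.79, 1.08 and 2.69 in Sca-1- cells. Slide 4 lay 1.71 above the other slides in both groups alike, and the difference between groups was 0.08 (-1.13 to 1.29). A second, dimmer Hif1a probe gave -0.12 (-0.73 to 0.49). Slide 4 also differed in other cell markers: Mcpt8, a basophil protease, was at -4.27 in Sca-1+ and -4.09 in Sca-1- cells there, against 1.28 to 3.59 in Sca-1+ and 1.39 to 3.15 in Sca-1- cells on slides 1 to 3. Summed over the 6 tested basophil and mast cell markers of 7 listed, the linear level ran from 0.34 to 23.0 in Sca-1+ cells and from 0.40 to 18.3 in Sca-1- cells, and Ms4a2 could not be tested. The part of those cells in the slide 4 values was not tested. For 20 of the 34 genes slide 4 differed from slides 1 to 3 by more than the groups differed from each other, against 77.9% of all genes.

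**Figure D4:**
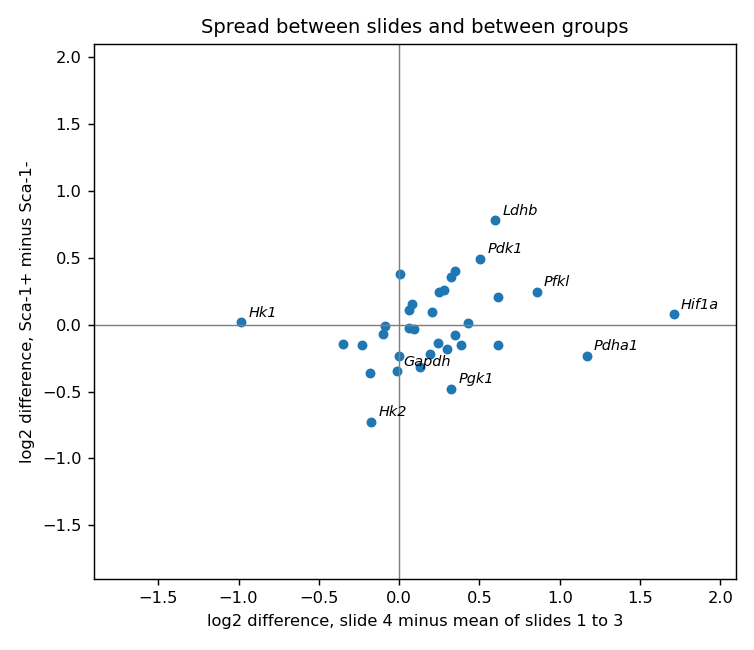
Difference between Sca-1+ and Sca-1- cells (vertical, log2) against the difference between slide 4 and the mean of slides 1 to 3 (horizontal, log2) for the 34 tested genes. Hif1a, at 1.71, Pdha1, at 1.17, and Hk1, at -0.98, lie far to the sides and near 0 on the vertical axis, whereas Hk2 and Ldhb stand out vertically.

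Since several enzymes come in forms with separate genes, the change of one form was set against that of another in the same samples, which does not depend on how arrays are scaled. Of 12 pairs tested, the groups did not overlap for 3, and 0 passed Benjamini-Hochberg adjustment over the 12 pairs. With 4 samples against 4 the exact permutation test, two-sided, cannot go below 0.029. A pair at that floor could pass the adjustment only if many other pairs reached it too. That 0 passed therefore does not show that the forms changed equally. Pfkm minus Pfkp was 0.57 higher in Sca-1+ cells, Pfkfb4 minus Pfkfb3 was 0.54 higher, and Pdk3 minus Pdk1 was -0.65 (each exact permutation p = 0.029, adjusted 0.11). Each of these had the same sign on all 4 slides. Ldhb minus Ldha was 0.85 higher, with 1.09, 1.02, 0.74 and 0.55 on slides 1 to 4 (exact permutation p = 0.086, adjusted 0.21). Pfkl minus Pfkp was 0.56 higher (exact permutation p = 0.11). For the remaining 6 pairs, of transporters, aldolases, enolases and dehydrogenase subunits, contrasts ran from -0.25 to 0.22. Levels of the 2 genes of a pair were not compared, because they come from different probes.

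The starts of these genes were searched for short motifs in the 250 bases before the RefSeq start (GRCm38.p6), on both strands. ACGTG is the core of the hypoxia response element, GCGTG a close variant of it, and CACGTG the E-box bound by Myc and related factors, which contains ACGTG. Of 49 starts of 35 genes, 36.7% held ACGTG, against 16.6% of all 32851 starts. GCGTG was in 59.2% of them, against 28.2% of all, and CACGTG in 10.2%, against 6.02%. These are counts of letters and do not show binding. The starts compared were not matched for base composition, and the part of composition in these shares was not tested. Windows are shown for Hk2 and Ldhb, the 2 genes called with the slide as a block, with ACGTG and GCGTG in capitals on either strand. Hk2 has 2 ACGTG and 0 GCGTG at chr6:82774455-82774704, and Ldhb has 0 ACGTG and 1 GCGTG at chr6:142507958-142508207, both read on the minus strand.
Hk2 window: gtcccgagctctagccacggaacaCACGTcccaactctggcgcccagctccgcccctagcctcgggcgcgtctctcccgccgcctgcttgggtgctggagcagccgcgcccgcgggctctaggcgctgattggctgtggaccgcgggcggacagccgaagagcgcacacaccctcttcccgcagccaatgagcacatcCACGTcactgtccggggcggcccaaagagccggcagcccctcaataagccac
Ldhb window: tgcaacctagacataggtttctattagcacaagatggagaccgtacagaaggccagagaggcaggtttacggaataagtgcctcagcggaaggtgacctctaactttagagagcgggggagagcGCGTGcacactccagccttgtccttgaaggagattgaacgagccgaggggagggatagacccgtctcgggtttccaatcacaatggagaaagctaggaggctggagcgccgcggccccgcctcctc

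Neighbouring pathways were read from lists of further genes. Of 15 other tested glycolysis and pentose phosphate enzymes, 0 were called either way, with a median of -0.00; Prps1, which makes the nucleotide precursor PRPP, was at -0.36 and H6pd, a glucose 6-phosphate dehydrogenase of the endoplasmic reticulum, at 0.37. Of 27 genes of pyruvate dehydrogenase control and the TCA cycle, 22 had negative differences, against 8842 of all 19818 tested genes. The list's median was -0.18, and 0 of its genes were called. Among them Pdp1, a phosphatase that reactivates pyruvate dehydrogenase, was at -0.65 (limma adjusted p = 0.28, or 0.045 with slide as a block) and Sdhb, a subunit of succinate dehydrogenase, at -0.34. For 13 genes of gluconeogenesis and glycogen the median was 0.03 and 0 were called, with Pck2 at -0.22 and G6pc3 at 0.21. Of 10 NADPH and glutathione genes, 9 had negative differences, with a median of -0.12, and 0 were called, with Gss at -0.27 and Txn1 at -0.35.

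A list of serine, one-carbon and hexosamine genes held 2 called genes of 12 tested, and both were lower in Sca-1+ cells. Serine synthesis branches off glycolysis at 3-phosphoglycerate. Mthfd1l, a mitochondrial enzyme that makes formate, had levels of 0.04, 0.23, 0.11 and 0.33 in Sca-1+ cells and 1.53, 1.16, 1.15 and 1.14 in Sca-1- cells. The groups were far apart on all slides. It fell by 1.07 ± 0.14 (SE, limma adjusted p = 0.0081). Psat1, a transaminase of serine synthesis, had levels of 1.96 to 2.00 in Sca-1+ cells and 2.49 to 3.07 in Sca-1- cells and fell by 0.89 ± 0.15 (limma adjusted p = 0.028). The list's median was -0.12.

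Among 20 genes of the HIF pathway and the hypoxia response the median was 0.04, and 1 was called. Vegfa, the vascular growth factor, was at -1.77 ± 0.31 (limma adjusted p = 0.028), well above background on 1 of 4 Sca-1+ and 4 of 4 Sca-1- arrays, and it was no longer called after quantile normalization or normexp background correction. In 17 regulators of glucose sensing and growth 0 were called, with a median of -0.01. Myc was at -1.78 ± 0.47 (limma adjusted p = 0.15), above background on 2 Sca-1+ and 3 Sca-1- arrays, and Rptor, a subunit of the mTOR complex, at 0.61 (limma adjusted p = 0.62, or 0.027 with slide as a block).

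Markers of pDC and of other cell types were not called in either direction in the unpaired fit. The 15 pDC markers had a median of 0.20; Irf7, a regulator of interferon genes, was at 0.94 and Lag3 at 0.73, and 4 of the 15 were called higher with slide as a block. Of 9 conventional DC markers 7 were tested, with the transcription factor Zbtb46 at -1.20 and the receptor Sirpa at 0.54, and with slide as a block 2 were higher and 1 lower. Their summed linear level was 101 to 113 in Sca-1+ cells and 98.8 to 112 in Sca-1- cells, and Batf3 and Xcr1 could not be tested. Of 12 monocyte and neutrophil markers 9 were tested, with Csf1r at -1.19 and Ccr2 at 0.23, and 1 was lower with slide as a block. Their sums were 241 to 377 in Sca-1+ cells and 217 to 371 in Sca-1- cells, and Fcgr1, Ngp and Ly6g could not be tested. Both sums come mostly from the brightest gene of the list and say little of the dimmer markers. In the B cell list Blk was at 0.33 and Cd79a at -0.34. In the T and NK cell list Lck was at 0.16 and Nkg7 at 0.16. In the red cell and platelet list Car1 was at 0.17 and Itga2b at -0.39. In the basophil list Hdc was at -0.23 (limma interval -3.78 to 3.32) and Gata2 at -0.14 (-3.28 to 3.00). Of the 6 tested markers in the basophil list, 3 differences were above 0 and 3 below, with a median of -0.04. The part of any of these cell types in the differences of the glycolysis genes was not tested.

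Cell cycle genes, by contrast, were lower throughout. Of 23 tested of 24 listed, 19 fell in Sca-1+ cells, 0 rose, and all 23 differences were negative, with a median of -1.95. One of the 19, Aurkb, was well above background on 0 Sca-1+ and 4 Sca-1- arrays. It could be tested only through the group where it was high, so its call adds no support. The 3 genes of the list with the smallest p were Nusap1, of the mitotic spindle, at -2.17, and the replication helicase subunits Mcm6, at -1.87, and Mcm5, at -1.92 (limma adjusted p = 0.0050 for each). Summed linear levels were 91.7 to 122 in Sca-1+ cells and 253 to 409 in Sca-1- cells, in units of each array's 75th percentile. Their part in the differences of Hk2 and the other glycolysis genes was not tested.

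**Figure D5:**
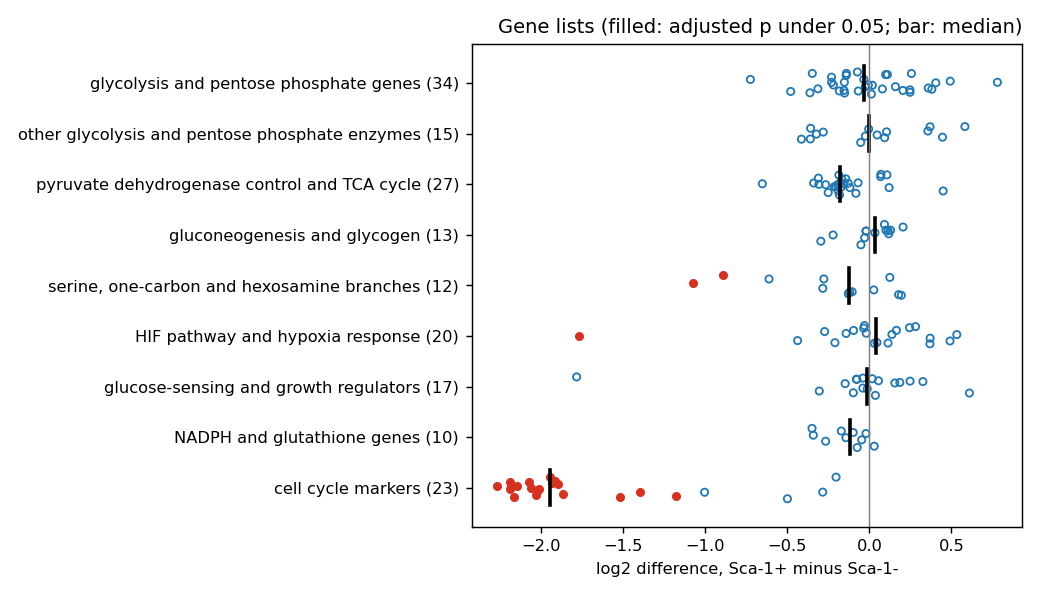
Difference between Sca-1+ and Sca-1- cells (log2) for each tested gene of 9 lists, with the number tested in brackets. Filled red points had a limma adjusted p under 0.05, and black bars are medians. The glycolysis and pentose phosphate genes centre on -0.03 with no filled point, whereas the cell cycle markers centre on -1.95.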

How the data were processed

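The authors scanned the arrays and read spot intensity in Agilent Feature Extraction. The version was 10.7.3.1 in the first file header, the only one read for it. Probe positions refer to mm9, per the file headers. The deposited intensity used here is that program's processed signal, from which background had been subtracted. A deposited table of log2 values covers the same arrays, with a median of 3.90 on each and correlations of 0.998 to 1.00 with the log2 processed signal. It served as an alternative, and its normalization is only partly known: equal medians point to a step between arrays, not stated in the labels. With it 333 of all tested genes were called, and 333 also with the quantile normalization run here. These 2 alternatives may therefore not be separate checks.

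Each array held 59305 non-control spots, of which 105 to 162 were left out as outliers, 0 were saturated, and 45.9% to 54.9% were well above background. The number of arrays limits the precision. Spots of the 55681 probes were averaged on the log2 scale, and the 75th percentile of each array was subtracted. Probes were renamed by accession (26528) or symbol (3090) through RefSeq tables, 58 probes were taken by the members' names, and 26005 kept the name in the files. All 36 members matched RefSeq. A gene was tested where 4 or more of the 8 arrays had its brightest probe well above background. Groups were compared without pairing by limma's moderated test (version 3.58.1, R 4.3.3), two-sided, with Benjamini-Hochberg adjustment over all tested genes and a threshold of 0.05. Pairs of enzyme forms were compared with an exact permutation test. The fitting code was tested on simulated data. Figures were drawn with Python 3.11.15 and matplotlib 3.10.9.

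The members, the lists and the tests were chosen with earlier results of these data known. All 36 members are named. Of other lists the called genes are named, or else the 2 with the smallest p, and for the cell cycle the 3 with the smallest p. Siglech, Tcf4, Mcpt8, Aurkb and the untestable markers were picked after their values were seen or to stand for their list. Of the 21 other probes of members that were above background, 17 had the sign of the probe used and 4 the opposite sign (of Gpi1, Hif1a, Hk1 and Slc16a3), and none was called.

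Replicate numbers are shared by the groups, and the same number means the same slide, per the file headers. Deviations from group means correlated at 0.44, 0.43, 0.64 and 0.89 within numbers 1 to 4, all above 0.1, so the slide was also fitted as a block. Among replicates 1 to 3, different numbers also correlated, at 0.12 to 0.54, so there the correlations do not tell pairs apart. The main tests were unpaired. Sca-1- samples lay at array position 1 and Sca-1+ samples at position 2 on every slide, so position and group cannot be told apart. Alternatives were the slide as a block, other background corrections, scalings and filters, other probe summaries, array weights, a trended prior, the authors' table, and leaving out arrays or slides.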

Additional observations from a re-analysis of the deposited data

Results flagged for a closer look

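Among the 68 sets of 4 samples (34 genes in each group), 5 held a sample far from the other 3 by Dixon's test, and chance alone gives about 1 in 20. In Sca-1+ cells these were replicate 4 for Pfkl, at 1.21 against 0.39 to 0.46 in the others, and replicate 4 for Pdk3, at 1.99 against 1.36 to 1.41. In Sca-1- cells replicate 4 stood apart for Hif1a, at 2.69 against 0.79 to 1.09, and for Slc16a1, at -1.04 against -1.38 to -1.34. Replicate 3 of the Sca-1- cells stood apart for Eno3, at 1.80 against 2.27 to 2.30. Thus 4 of the 5 lay on slide 4, which had another scan day and protocol. For Pfkl, Pdk3 and Hif1a the sample of the other group on that slide was high too.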

How the results depend on the processing

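Over 23 alternative settings, 29 of the 34 tested genes were called in none. With the slide as a replicate block, 1 member was called higher (Ldhb) and 1 lower (Hk2), while calls over all genes went to 1233, against 339, and the share of lower calls to 66.3%, against 92.6%. With array weights 1 was higher (Pdk1) and 3 were lower (Hk2, Pgk1 and Tkt), among 1509 calls, 66.9% of them lower. Leaving out arrays or slides gave 0 higher and 0 to 1 lower, the 1 being Hk2 without replicate 4, while calls over all genes ran from 1, without replicate 1, to 879, without replicate 4. Testing all genes with no filter gave 182 calls and no member. The members' median was 0.016 after quantile normalization, 0.016 in the authors' table, -0.083 within replicate number 2 and 0.0089 within replicate number 3, and -0.082 to -0.0070 when an array or slide was left out, the lowest without Sca-1- replicate 3. The cause of these shifts was not tested. The median therefore has no settled sign. Hk2, Ldhb, Pgk1, Pdk1, Pfkm and Pfkp kept their sign under every setting that was run, with ranges of -0.88 to -0.52, 0.63 to 0.98, -0.60 to -0.39, 0.24 to 0.67, 0.19 to 0.33 and -0.39 to -0.20. Most of the other tested members kept theirs too, Gapdh, Tkt, Tpi1 and Slc16a3 among them. The settings share the same arrays, so a kept sign does not set these genes apart. No list outside the cell cycle had more than 4 calls in the unpaired fit, with the block or under the other scalings and background correction, and the pDC markers reached 4 higher with the replicate block. With 4 arrays per group, small differences of single genes were not detectable.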
